A study of Drosophila melanogaster with 8 samples.

Results

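The cytochrome P450 genes of Drosophila melanogaster were followed in the heads of male flies that had been fed a convulsant and then an antiepileptic drug. They were represented by 51 cDNA clones of 42 genes, among 7558 array clones with a single annotated gene (6793 genes in all). A clone was taken where its gene's current symbol was Cyp followed by a family number, Cyp4d21 was left out, and a value had to be present on at least 2 arrays of each day. Of 133 clones of 72 genes with such a symbol, 51 met the requirement on arrays, which counts values and does not use their size. A clone of Cyp4d21, the gene left out by name, was itself below 0, with means of -0.67 on day 10 and -0.53 on day 14, so the 51 clones do not stand for every measured P450 gene. A further Cyp4d21 clone on the array was not examined. The 30 genes without such a clone included the pseudogenes Cyp6a15Psi and Cyp6a16Psi, and also Cyp40, a cyclophilin gene and not a P450. At the limit of the requirement, 28 clones had 2 arrays on their sparser day, with single values from -1.98 to 2.29 and a median of -0.18 (log2). Another 27 clones had a single array on that day and fell outside, with values from -3.99 to 1.69 and a median of -0.20. The other 55 had none on that day, and 10 of these 55 had no value at all.

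On day 10, the treated pools came from unmated Oregon-R males that had eaten pentylenetetrazole (PTZ, 8 mg/ml in food) for 7 days and vigabatrin (VGB, 24 mg/ml) for the next 3 days. On day 14, the treated pools came from males given the same drugs in the same order and then normal food for 4 days. The control pools of each day came from Oregon-R males of the same age that had eaten only normal food and were harvested beside the treated ones, and all flies were 3 to 4 days old when feeding began. Each of 8 arrays, 4 per day, set RNA of pooled treated heads against RNA of pooled control heads, with treated RNA in Cy5 in replicates 1 and 2 of each day and in Cy3 in replicates 3 and 4. No group received PTZ or VGB alone, so the effects of the drugs cannot be told apart, and pooling hides the spread between flies. Pentylenetetrazole is a blocker of GABA receptors used to provoke seizures, and vigabatrin slows the breakdown of GABA by inhibiting its transaminase.

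Cytochrome P450 enzymes carry a haem group and insert oxygen into their substrates. Most sit in the endoplasmic reticulum and take electrons from cytochrome P450 reductase or cytochrome b5, while the mitochondrial ones take them from ferredoxins. Insect P450 genes are sorted into the CYP2, CYP3, CYP4 and mitochondrial clans, of which CYP3 and CYP4 are large and hold many genes that respond to plant toxins, drugs and insecticides. In flies, many are expressed in fat body, gut and Malpighian tubules, and the head holds fat body, antennae, eyes and brain.

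Each value is a log2 ratio with treated heads over control heads, so that a value below 0 is lower in treated heads. The direction of the deposited ratios is not stated. It was taken as likely from the order of channels and dyes in the labels, and every sign below rests on it. Unless stated, the median of each array was subtracted (centred ratio), which before subtraction lay between -0.48 and 0.24. The P450 clones were measured on all arrays with gaps, from 22 of the 51 on day-10 replicate 4 to 48 on day-10 replicate 1, and 10 had all 8 values. The number of spots with a value ran from 8419 on day-10 replicate 4 to 20241 on day-10 replicate 2. A clone was spotted in 2 neighbouring spots, whose values for P450 clones differed by a median of 0.08 to 0.28 per array. Of the head marker genes, 6 of 12 photoreceptor genes, 5 of 10 antennal genes and 1 of 8 neuronal genes were on the array, and at least 1 clone of each of these kinds was measured often enough to be tested. Ratios hold no expression level, so their abundance was not analysed here.

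P450 clones were lower more often than higher in treated heads on both days, and a single gene passed the test on day 10. The median over the P450 clones was below 0 on 7 of the 8 arrays. On day 10 these array medians were -0.25, 0.00, -0.06 and -0.20 for replicates 1 to 4, and on day 14 they were -0.10, -0.19, -0.16 and -0.09. Single P450 clones ran from -1.98 for a clone of Cyp9c1 to 2.29 for Cyp9h1, both on day-10 replicate 1. That array carried the widest range of P450 ratios, with quartiles at -0.73 and 0.14, against -0.31 and 0.46 over all its clones.

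**Figure D1:**
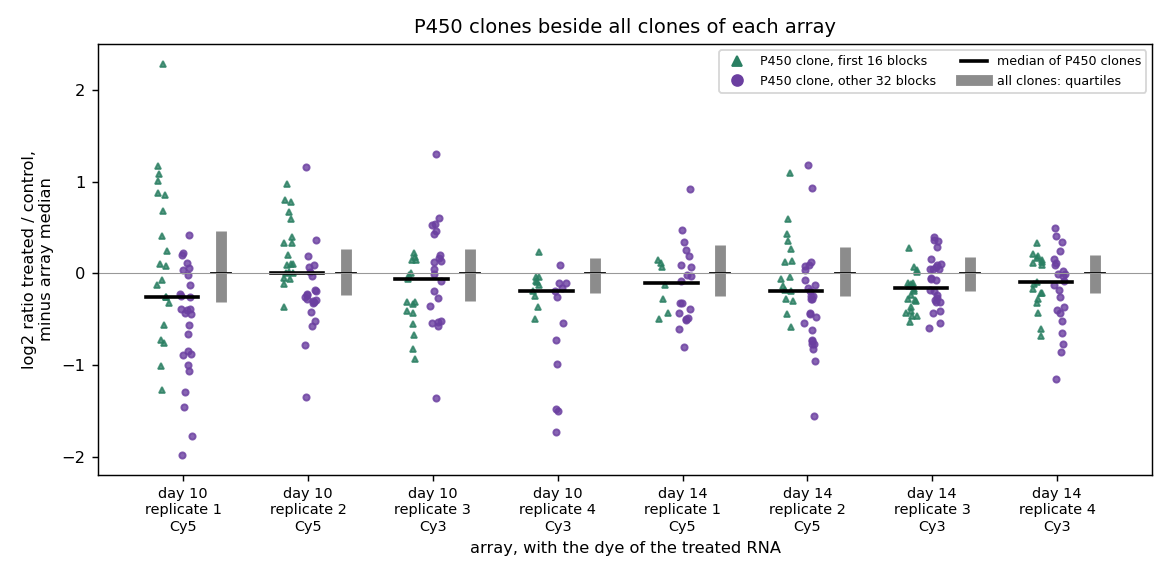
Each symbol is the centred log2 ratio of a P450 clone on an array, split by place on the slide (triangles, first 16 print blocks; circles, other 32). Black lines are the medians of the P450 clones, from -0.25 to 0.00, and grey bars span the quartiles of all clones of the array.

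A test was possible for 23 of the 51 clones (22 genes), those with values on at least 3 of 4 arrays of each day. In the limma fit over all 4563 such clones, 1 of 23 P450 clones passed on day 10 at a Benjamini-Hochberg adjusted p of 0.05, which was Cyp313a1 as lower, beside 3.02% of all clones tested (2.19% lower and 0.833% higher). On day 14 none of the 23 passed, and neither did any other clone (0.0%), while 8 P450 clones and 880 clones in all had an unadjusted p under 0.05. For the mean of both days 2 of 23 passed as lower, Cyp313a1 and Cyp4e2, beside 6.6% of all clones in either direction and 4.89% as lower, and none passed as higher, beside 1.71%. Among fitted day-10 values, 16 of 23 were below 0, with a median of -0.12, beside 48.9% of all clones with a median of 0.01. On day 14 this was 13 of 23, with a median of -0.06, beside 52.1% of all clones with a median of -0.01. Where the median of neighbouring clones was subtracted instead, 15 of 21 P450 clones were below 0 on each day. Of all clones, 53.9% were below 0 on day 10 and 51.9% on day 14 in that setting.

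In the values as deposited, with no median subtracted, 6 P450 clones passed as lower on day 10 (Cyp313a1, Cyp4e2, Cyp28d1, Cyp9b1, Cyp311a1 and Cyp6a23), beside 13.6% of all clones. For the mean of both days 5 of these passed, without Cyp311a1, beside 9.47% of all clones as lower. As deposited, the day-10 median was -0.35 over the P450 clones, against -0.21 over all tested clones. With each day fitted alone, 7 passed on day 14, beside 11.6% of all clones, namely Cyp313a1, Cyp4e2, Cyp28d1, Cyp6a23, Cyp6d5 and Cyp9f2 as lower (5.98% of all) and Cyp12d1-d as higher (5.65% of all). In that fit the count on day 10 was again 1, Cyp313a1, beside 0.0438% of all clones.

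**Figure D2:**
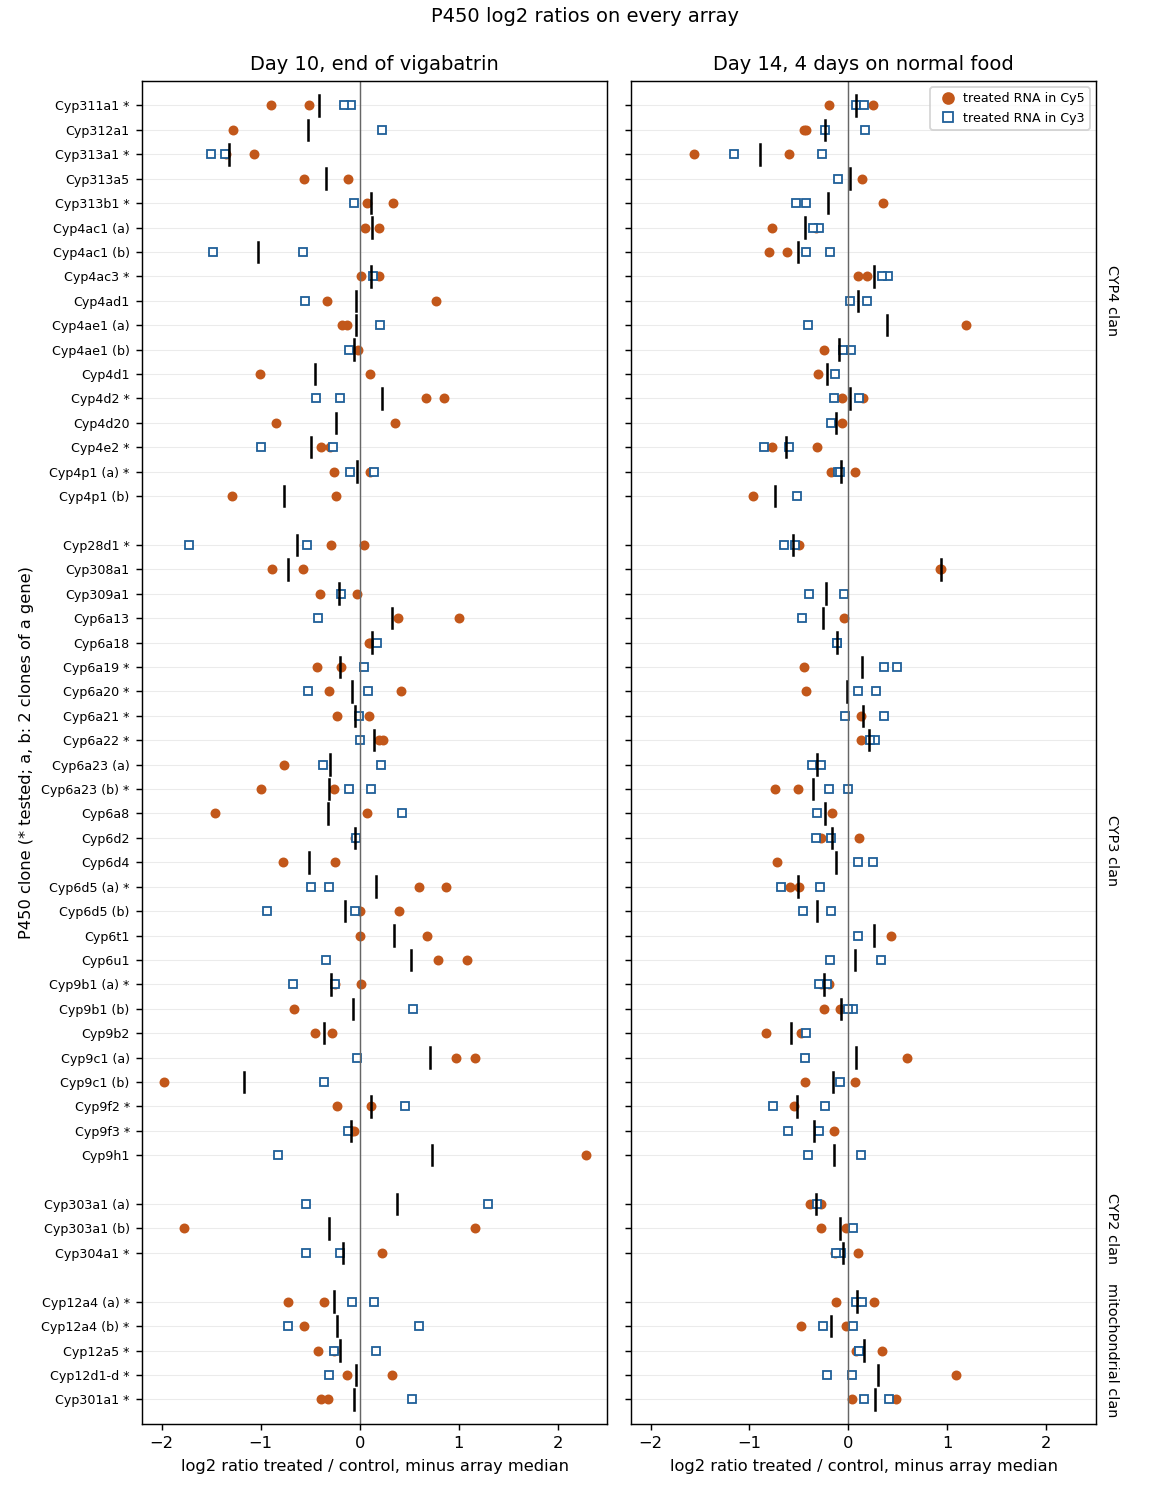
Centred log2 ratios of treated over control heads for all 51 P450 clones on day 10 (left) and day 14 (right). Filled circles have treated RNA in Cy5 and open squares in Cy3, black bars are means, an asterisk marks the 23 tested clones, and a and b mark 2 clones of a gene. Cyp313a1 and Cyp4e2 lie below 0 on all 8 arrays.

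The CYP4 clan was represented by 17 clones of 14 genes and held the lowest mean P450 ratio on both days. Its median mean ratio was -0.24 on day 10, where 13 of 17 clones were below 0, and -0.13 on day 14, where 11 were. Cyp313a1, a gene of the insect Cyp313 family, had centred ratios of -1.06, -1.35, -1.36 and -1.50 on day-10 replicates 1 to 4. On day 14 it had -0.60, -1.56, -0.27 and -1.15. All 8 values were below 0, with an SD of 0.18 on day 10 and of 0.57 on day 14 (n = 4 each). Cyp313a1 fell by 1.32 ± 0.19 on day 10 (SE, n = 4, limma adjusted p = 0.0105), and over the mean of both days it fell by 1.11 ± 0.13 (limma adjusted p = 0.00575). On day 14 its fitted ratio was -0.90 ± 0.19 (limma adjusted p = 0.130), and its difference between the days, 0.42 ± 0.26, did not pass (limma adjusted p = 0.564). These pools are bulk heads, so fewer cells of a type and less RNA per cell cannot be told apart. Without day-10 replicate 1 the day-10 ratio was -1.44 and no longer passed (limma adjusted p = 0.0543). In that fit 0.0657% of all clones passed on day 10, against 3.02% with all 8 arrays.

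The Cyp4e2 clone, of the large Cyp4 family whose mammalian relatives hydroxylate fatty acids, was the other clone below 0 on all 8 arrays. On day 10 its centred ratios were -0.39, -0.30, -0.27 and -0.99, and on day 14 they were -0.32, -0.77, -0.60 and -0.85. Day-10 replicate 4 lay apart from the other 3 arrays of its day, and the values of both days overlapped. Cyp4e2 fell by 0.56 ± 0.09 over the mean of both days (SE, n = 8, limma adjusted p = 0.0135). Taken by day it did not pass, with -0.49 ± 0.13 on day 10 and -0.64 ± 0.13 on day 14 (limma adjusted p = 0.0733 and 0.130). Without day-14 replicate 4 its mean of both days was -0.54 and did not pass (limma adjusted p = 0.0627). In that fit 0.614% of all clones passed for the mean, against 6.6% with all 8 arrays. Of the 10 P450 clones with all 8 values, Cyp313a1 and Cyp4e2 were lower throughout and none was higher throughout. Over all 1881 clones with 8 values these shares were 5.64% and 1.75%.

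Cyp311a1, a gene whose product is known from the larval midgut, where it is needed for membrane lipids of the microvilli, differed in pattern between the days. On day 10 its centred ratios were -0.89, -0.52, -0.09 and -0.16, all below 0 and lower where treated RNA was in Cy5. On day 14 they were 0.25, -0.20, 0.07 and 0.16, on both sides of 0. Its fitted ratio was -0.41 ± 0.12 on day 10 and 0.07 ± 0.12 on day 14, and neither these nor the difference of 0.49 ± 0.17 passed (limma adjusted p = 0.0871, 0.804 and 0.411). As deposited, Cyp311a1 fell by 0.63 ± 0.15 on day 10 (limma adjusted p = 0.0190).

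Both clones of Cyp4ac1 were below 0 on day 14, but they were measured on different arrays on day 10. Clone a had 0.06 and 0.19 on day-10 replicates 1 and 2, where treated RNA was in Cy5, and clone b had -0.57 and -1.48 on replicates 3 and 4, where it was in Cy3. On day 14, clone a had -0.33, -0.77, -0.30 and -0.36 and clone b had -0.81, -0.62, -0.43 and -0.19. Neither clone could be tested under the requirement of 3 arrays per day. Where 2 arrays of each day were allowed, clone b of Cyp4ac1 passed as lower for the mean of both days, at -0.87 ± 0.16 (limma adjusted p = 0.0493), beside 2.15% of all clones. Its genomic neighbour Cyp4ac3 had mean ratios of 0.12 ± 0.10 on day 10 (SD, n = 3) and 0.25 ± 0.14 on day 14 (SD, n = 4), above 0 on all 7 arrays that measured it, and did not pass (limma adjusted p = 0.557 and 0.220).

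The clones of Cyp4p1 differed from each other. Clone a had -0.26, 0.11, 0.15 and -0.09 on day 10 and 0.06, -0.18, -0.11 and -0.09 on day 14, all near 0. Clone b had -1.29 and -0.24 on day-10 replicates 1 and 2, and -0.96 and -0.52 on day-14 replicates 2 and 4. Where both were measured, on 4 arrays, clone a was 0.35 to 1.03 above clone b. Clone a of Cyp4ae1 had -0.13, -0.18 and 0.20 on day-10 replicates 1 to 3, and 1.18 and -0.41 on day-14 replicates 2 and 3. Clone b had -0.01 and -0.11 on day-10 replicates 1 and 4, and -0.25, -0.06 and 0.03 on day-14 replicates 2 to 4. On day-14 replicate 2 the clones of Cyp4ae1 thus differed by 1.43.

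The other CYP4 clan genes had mean ratios of smaller size or with wide spreads. Cyp4d2 had a mean of 0.22 ± 0.64 on day 10 and 0.01 ± 0.14 on day 14 (SD, n = 4 each), with both Cy5 arrays above 0 and both Cy3 arrays below 0 on day 10. Cyp313b1 had a fitted ratio of 0.03 on day 10 and -0.11 on day 14 and did not pass (limma adjusted p = 0.942 and 0.722). The remaining untested clones had means from -0.52 for Cyp312a1 to -0.04 for Cyp4ad1 on day 10, with Cyp4d1, Cyp313a5 and Cyp4d20 between them at -0.45, -0.34 and -0.24. On day 14 the same clones ran from -0.24 for Cyp312a1 to 0.10 for Cyp4ad1, with -0.22 for Cyp4d1, -0.13 for Cyp4d20 and 0.02 for Cyp313a5. Each of these 5 rested on 2 or 3 arrays on day 10.

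**Figure D3:**
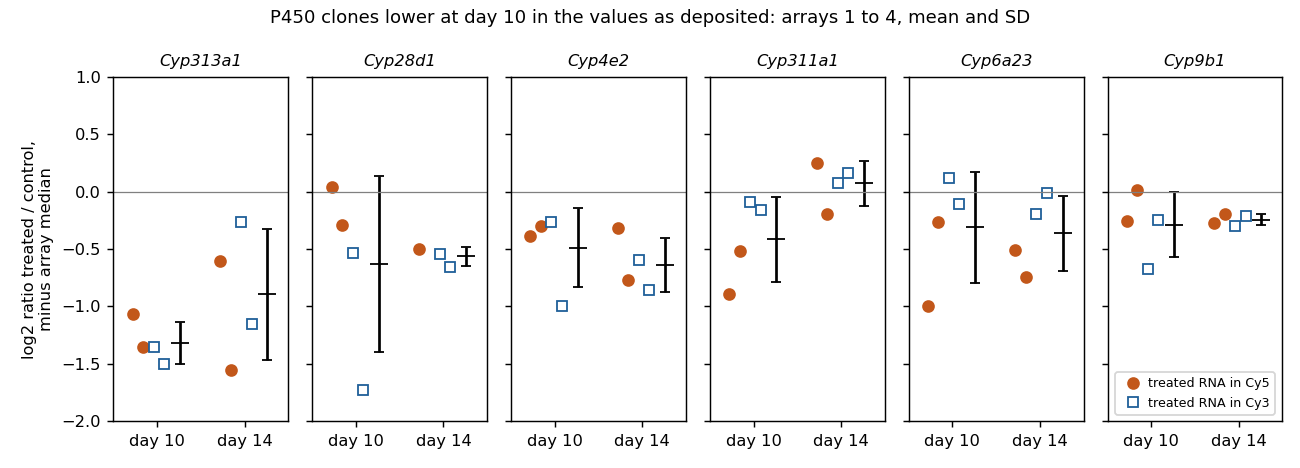
Centred log2 ratios on day-10 and day-14 arrays 1 to 4, with mean and SD, for the 6 P450 clones that were lower on day 10 in the values as deposited. After centring, only Cyp313a1 of these 6 passed on day 10, and its 4 day-10 values, from -1.50 to -1.06, lie close together.

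The CYP3 clan was represented by 26 clones of 22 genes, with medians of -0.08 on day 10 and -0.16 on day 14. Of its 26 clones, 17 were below 0 on day 10, 19 on day 14 and 14 on both days. In the fit of both days together, none of its 10 tested clones passed on either day after centring. Of all clones, 3.02% passed on day 10 and 0.0% on day 14 in that fit. With day 14 fitted alone 4 passed as lower (Cyp28d1, Cyp6a23, Cyp6d5 and Cyp9f2), beside 5.98% of all clones as lower. Cyp28d1, a gene linked to nicotine resistance, came nearest on day 10. It had 0.04, -0.29, -0.53 and -1.73 on day-10 replicates 1 to 4, and -0.50, -0.54 and -0.66 on day-14 replicates 1, 3 and 4. Day 14 was tight (SD 0.08, n = 3), while day 10 had a spread of 0.77 (SD, n = 4) and its lowest value on replicate 4. The fitted ratio of Cyp28d1 was -0.63 ± 0.20 on day 10 and, with a missing replicate 2, -0.46 ± 0.23 on day 14 (limma adjusted p = 0.107 and 0.328). As deposited, Cyp28d1 fell by 0.85 ± 0.19 on day 10, and over both days it fell by 0.62 ± 0.15 (limma adjusted p = 0.0173 and 0.0235).

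The Cyp6 family, which includes many genes induced by foreign chemicals, had 15 clones of 13 genes, with medians of -0.05 on day 10 and -0.13 on day 14. Clone b of Cyp6a23 had -0.995, -0.26, 0.12 and -0.11 on day 10, and -0.51, -0.74, -0.19 and -0.01 on day 14. On both days it was lower on the arrays with treated RNA in Cy5. Clone a of Cyp6a23 had -0.76, 0.22 and -0.37 on day-10 replicates 1, 3 and 4, and -0.37 and -0.28 on day-14 replicates 3 and 4. The clones of Cyp6a23 had the same sign on all 5 arrays that measured both. Clone b had a fitted ratio of -0.31 ± 0.13 on day 10 and -0.36 ± 0.13 on day 14, which did not pass (limma adjusted p = 0.198 and 0.183), and as deposited it fell by 0.53 ± 0.15 on day 10 (limma adjusted p = 0.0405).

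Clone a of Cyp6d5 had 0.87, 0.60, -0.31 and -0.49 on day 10, and -0.50, -0.59, -0.28 and -0.68 on day 14. Its day-10 values split by dye, and its day-14 values were all below 0. The fitted difference between the days was -0.68 ± 0.24 and did not pass (limma adjusted p = 0.411). Clone b of Cyp6d5 had the same sign as clone a on all 6 arrays with both, with means of -0.15 on day 10 and -0.32 on day 14. Cyp6u1 had 1.09, 0.80 and -0.34 on day-10 replicates 1 to 3, and -0.19 and 0.33 on day-14 replicates 3 and 4, so that its high values were both on Cy5 arrays of day 10. Cyp308a1 had -0.88 and -0.57 on day-10 replicates 1 and 2, and 0.92 and 0.94 on day-14 replicates 1 and 2. It was the only P450 clone without any value in the Cy3 orientation, so for Cyp308a1 dye and treatment cannot be told apart.

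A run of 9 neighbouring P450 genes, from Cyp6a22 to Cyp317a1 in the order of the RefSeq annotation, had 6 genes with a clone among the 51. Cyp6a22 had means of 0.15 ± 0.12 on day 10 and 0.20 ± 0.08 on day 14 (SD, n = 3 each), above 0 on all 6 arrays that measured it. Cyp6a8, which encodes a lauric acid hydroxylase, had -0.32 ± 1.00 (SD, n = 3) on day 10 and -0.24 ± 0.11 (SD, n = 2) on day 14. Cyp6a20, an antennal gene whose lower expression is linked to more aggression between males, had -0.08 ± 0.42 (SD, n = 4) on day 10 and -0.02 ± 0.37 (SD, n = 3) on day 14. Cyp6a19 and Cyp6a21 had -0.19 and -0.05 on day 10, and 0.14 and 0.15 on day 14. The means of these genes lay on both sides of 0, from -0.32 to 0.15 on day 10 and from -0.36 to 0.20 on day 14.

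The other Cyp6 genes were measured too seldom for a test. On day 10, Cyp6d4 had a mean of -0.51, Cyp6d2 of -0.05, Cyp6a18 of 0.12, Cyp6a13 of 0.33 and Cyp6t1 of 0.34. On day 14, Cyp6a13 had -0.26, Cyp6d2 -0.17, Cyp6d4 -0.13, Cyp6a18 -0.11 and Cyp6t1 0.26. Cyp309a1, of a small family in this clan, had -0.21 on day 10 and -0.22 on day 14. Of these 6 genes, 3 were below 0 on both days, namely Cyp6d4, Cyp6d2 and Cyp309a1.

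The Cyp9 family had 8 clones of 6 genes, with medians of -0.07 on day 10 and -0.20 on day 14, where 7 of the 8 were below 0. Clone a of Cyp9b1 had -0.25, 0.02, -0.67 and -0.25 on day 10, and -0.28, -0.19, -0.30 and -0.21 on day 14. Its day-14 values were the tightest of any P450 clone on 4 arrays (SD 0.05), all below 0. The fitted ratio of clone a was -0.29 ± 0.11 on day 10 and -0.24 ± 0.11 on day 14 and did not pass (limma adjusted p = 0.175 and 0.267), while as deposited it fell by 0.51 ± 0.12 on day 10 (limma adjusted p = 0.0184). Clone b of Cyp9b1 had -0.66 and 0.54 on day-10 replicates 1 and 3, and -0.08, -0.25, 0.05 and -0.003 on day 14, on both sides of 0. Cyp9b2, the neighbour of Cyp9b1, had means of -0.37 ± 0.12 (SD, n = 2) on day 10 and -0.58 ± 0.22 (SD, n = 3) on day 14, below 0 on all 5 arrays that measured it.

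Clone a of Cyp9c1 had 1.17, 0.98 and -0.02 on day-10 replicates 1 to 3, and 0.59 and -0.44 on day-14 replicates 2 and 3. Clone b of Cyp9c1 had -1.98 and -0.36 on day-10 replicates 1 and 3, and 0.07, -0.44 and -0.08 on day-14 replicates 1, 2 and 4. On day-10 replicate 1 the clones differed by 3.15, the largest gap between clones of a gene among the P450 genes. Cyp9h1 had 2.29 and -0.83 on day-10 replicates 1 and 3, and -0.41 and 0.12 on day-14 replicates 3 and 4, so its high day-10 mean rests on a single array. Cyp9f2 and Cyp9f3 were tested, with fitted ratios of 0.16 and -0.12 on day 10, and -0.56 and -0.32 on day 14. None of these 4 values passed (limma adjusted p = 0.636 and 0.677 on day 10, and 0.153 and 0.235 on day 14).

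The CYP2 clan, which in insects holds genes of development and sensory structures, had 3 clones of 2 genes. Clone a of Cyp303a1, a gene needed for mechanosensory bristles, had 1.30 and -0.54 on day-10 replicates 3 and 4, and clone b had -1.78 and 1.16 on replicates 1 and 2. These values gave no common sign, and on replicate 3 the 2 spots of clone a differed by 3.73. On day 14 the means were -0.33 ± 0.06 for clone a and -0.09 ± 0.17 for clone b (SD, n = 3 each). Cyp304a1 had a fitted ratio of -0.12 ± 0.14 on day 10 and -0.06 ± 0.12 on day 14 (limma adjusted p = 0.680 and 0.836).

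The mitochondrial clan, whose members take electrons from ferredoxin, had 5 clones of 4 genes, all of them tested. Their mean ratios were below 0 in 5 of 5 clones on day 10, with a median of -0.19, and in 1 of 5 on day 14, with a median of 0.16. Among fitted values of all clones tested, 48.9% were below 0 on day 10 and 52.1% on day 14. With the dye term fitted, Cyp301a1 was at 0.002 ± 0.17 on day 10 (SE). Cyp12a4, known for resistance to lufenuron when overexpressed, had -0.26 ± 0.38 in clone a (SD, n = 4) and -0.23 ± 0.72 in clone b (SD, n = 3) on day 10. On day 14 clone a had 0.09 ± 0.16 and clone b -0.18 ± 0.24 (SD, n = 4 each). Cyp12a5, its neighbour, had -0.19 ± 0.25 on day 10 and 0.16 ± 0.12 on day 14 (SD, n = 4 each), and was above 0 on all 4 day-14 arrays. The fitted difference of Cyp12a5 between the days was 0.35 ± 0.16 and did not pass (limma adjusted p = 0.476).

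Cyp12d1-d is inducible by caffeine and DDT and has a near-identical copy, Cyp12d1-p, whose RNA the clone could also bind. It had -0.13, 0.33 and -0.31 on day-10 replicates 1 to 3, and 1.09, 0.03 and -0.21 on day-14 replicates 2 to 4. The day-14 mean of Cyp12d1-d rests on replicate 2, where the 2 spots of the clone differed by 1.41. Its fitted ratio was -0.17 ± 0.17 on day 10 and 0.44 ± 0.17 on day 14 (limma adjusted p = 0.633 and 0.223). Cyp301a1, a gene of the adult cuticle, had -0.06 ± 0.51 on day 10 (SD, n = 3) and 0.27 ± 0.21 on day 14 (SD, n = 4), above 0 on all 4 day-14 arrays.

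The difference between day 14 and day 10 was tested in the same fit, and none of the 23 P450 clones passed, as was the case for all clones (0.0%). At an unadjusted p under 0.05 there were 4 P450 clones and 479 clones in all. Those 4 were Cyp9f2 at -0.72 ± 0.23 and Cyp6d5 clone a at -0.68 ± 0.24, both lower on day 14 than on day 10, and Cyp311a1 at 0.49 ± 0.17 and Cyp12d1-d at 0.61 ± 0.25, both higher (SE, limma adjusted p = 0.404, 0.411, 0.411 and 0.443). The median over the P450 clones was 0.07, beside 0.02 over all clones. Seen on all 4 arrays of day 14, 7 of 19 P450 clones were lower on each (Cyp313a1, Cyp4e2, both clones of Cyp4ac1, Cyp6a23 clone b, Cyp6d5 clone a and Cyp9b1 clone a) and 3 were higher on each (Cyp4ac3, Cyp12a5 and Cyp301a1), beside 16.8% and 12.9% of all clones with 4 values. On day 10, 3 of 13 were lower on each array (Cyp313a1, Cyp4e2 and Cyp311a1) and none was higher on each, beside 12.9% and 9.94% of all clones.

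**Figure D4:**
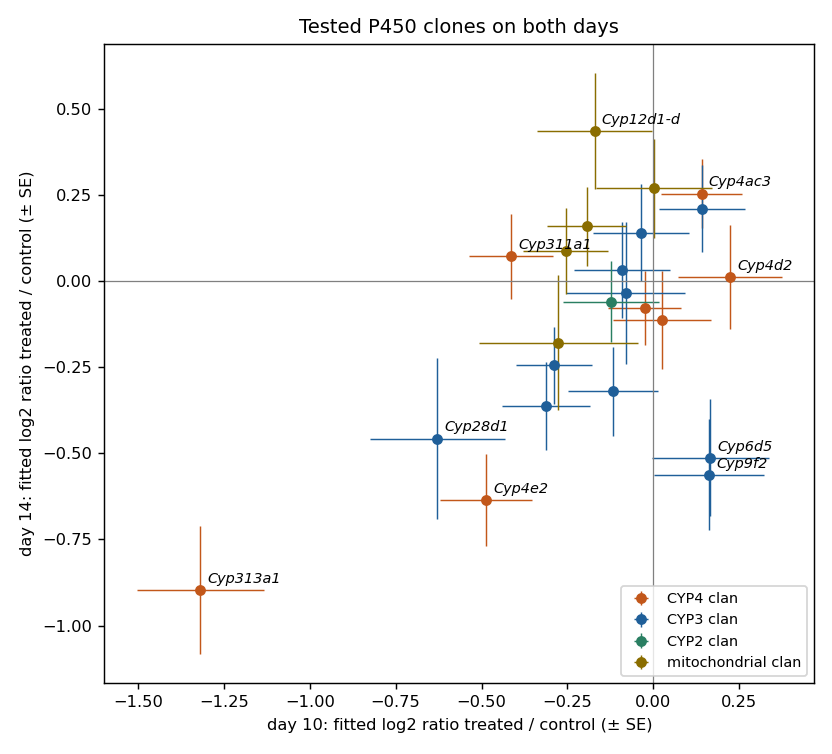
Fitted centred log2 ratio with SE on day 10 (horizontal) and day 14 (vertical) for the 23 tested P450 clones, coloured by clan. Cyp313a1, at -1.32 and -0.90, lies far from the others at the lower left, and Cyp4e2 and Cyp28d1 are below 0 on both days.

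The place of a clone on the slide moved with the ratios on both days, though not in the same direction on every array. The 22 P450 clones of the first 16 print blocks, as inferred from the order of spots, had a median of -0.03 on day 10 with 12 below 0, while the 29 in the other 32 blocks had -0.23 with 25 below 0. All tested clones moved the same way, with medians of 0.11 in the first blocks and -0.04 in the others. On day 14 the P450 medians were -0.13 in both parts of the slide. All tested clones then had -0.05 in the first blocks and 0.02 in the others. On day-14 replicate 2 the P450 medians were -0.05 in the first blocks against -0.28, and on replicate 3 they were -0.19 against -0.06. On replicates 1 and 4 they were -0.12 and -0.10 against -0.08 and -0.08. Over all clones, day-14 replicates 1 to 4 had -0.12, 0.045, -0.06 and -0.11 in the first blocks. The other blocks had 0.10, -0.02, 0.04 and 0.08. On day-10 replicates 1 and 2 the P450 clones of the first blocks had medians of 0.08 and 0.11, against -0.40 and -0.25 in the other blocks, and on replicate 4 they had -0.11 against -0.40. On replicate 3 the order was the other way, with -0.31 in the first blocks against 0.04 in the other blocks. Cyp313a1, Cyp4e2, Cyp28d1 and Cyp311a1 lay in the other blocks. Where the median of neighbouring clones was subtracted, 21 P450 clones could be tested. Cyp4e2 then fell by 0.60 ± 0.09 over both days (limma adjusted p = 0.00823), beside 3.85% of all clones lower, and none of the 21 passed on day 10, beside 1.41% of all clones. Cyp313a1 and Cyp28d1 had no such value on enough arrays, so the part of slide position in their ratios was not tested.

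For 9 genes 2 clones were among the 51. Both clones of a gene share the dye orientation and other effects of an array, and agreement between clones of different genes was not examined. On 41 occasions both clones of a gene were measured on the same array, and they had the same sign on 32. The median gap between them was 0.35. Agreement in sign was complete for Cyp4ac1, Cyp6a23 and Cyp6d5, on 4, 5 and 6 arrays, and was 5 of 7 for Cyp12a4, 4 of 6 for Cyp9b1, 3 of 4 for Cyp4p1, 2 of 3 for Cyp303a1 and Cyp4ae1 and 1 of 3 for Cyp9c1. Cyp313a1, Cyp4e2, Cyp28d1 and Cyp311a1 had a single clone each among the 51. Further clones of Cyp4e2, Cyp28d1 and Cyp311a1 were on the array but had values on too few arrays, and they were not compared.

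**Figure D5:**
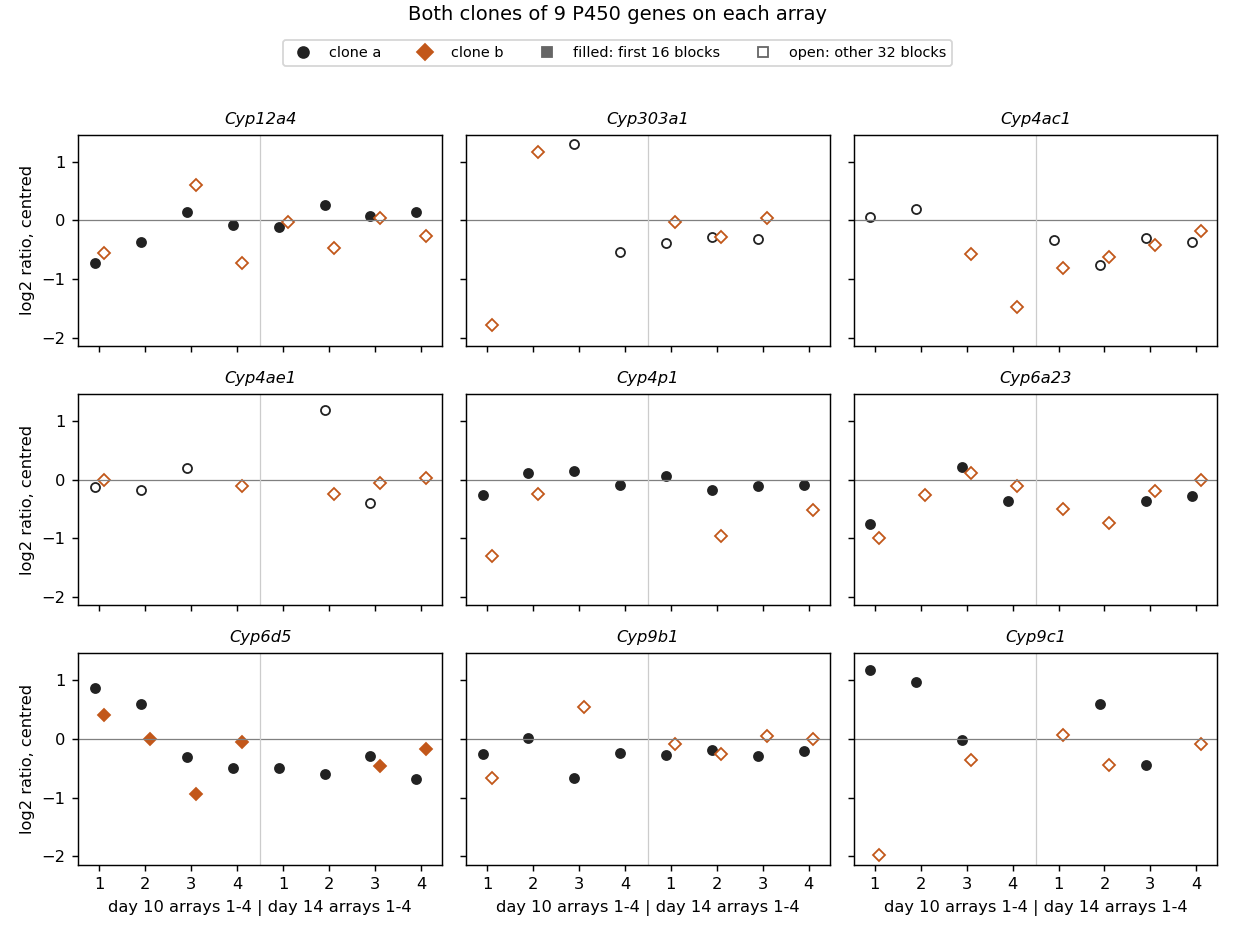
Centred log2 ratios of both clones (a, circles; b, diamonds) of 9 P450 genes on day-10 arrays 1 to 4 and day-14 arrays 1 to 4, filled where the clone lay in the first 16 print blocks. The clones of Cyp6a23 and Cyp6d5 go together, and those of Cyp9c1 are 3.15 apart on day-10 replicate 1.

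Over all 8 arrays the 5 named clones whose ratios followed those of Cyp313a1 most closely, among 1105 named clones with 8 values, were Cyp4d21 (Pearson r = 0.894), sug (0.891), CG4911 (0.885), FoxK (0.868) and Gbs-70E (0.858). These arrays share their dye orientation and slide effects, and the coefficients describe 8 points. The Cyp4d21 clone was below 0 in both day means, as given above, while sug had means of 0.09 on day 10 and 0.29 on day 14. Among P450 clones with 8 values the closest to Cyp313a1 was Cyp12a5 (r = 0.445), and Cyp4e2 had r = 0.265.

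Genes that work with P450 enzymes were represented thinly. Of 6 genes listed as electron donors 2 were on the array, Cyt-b5-r and Fdx2, and a single clone of them was tested. Cpr, Cyt-b5, dare and Fdx1 were not on the array. Cyt-b5-r, cytochrome b5-related, was listed by its name, and whether it gives electrons to P450 enzymes was not tested. Its tested clone had -0.86, -0.43, -1.22 and -1.72 on day 10, and -0.16, -0.67, -0.02 and -0.83 on day 14. All 8 values were below 0. Its fitted ratio was -1.06 ± 0.18 on day 10 and passed (SE, limma adjusted p = 0.0170), beside 2.19% of all clones as lower. On day 14 it was -0.42 ± 0.18 and did not pass (limma adjusted p = 0.239). Over both days this clone fell by 0.74 ± 0.13 (SE, limma adjusted p = 0.0141), beside 4.89% of all clones as lower. A second clone of Cyt-b5-r had -0.61 and -0.42 on day-10 replicates 1 and 2. Fdx2, a ferredoxin gene, had -0.95 and 0.75 on day-10 replicates 1 and 3 in 1 clone and -0.34 and -0.03 on replicates 1 and 2 in another, with no common sign.

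The regulators, conjugating enzymes and transporters gave few calls. Among 8 regulator genes on the array, 4 were tested and none passed on either day or for the mean, namely EcR, Hnf4, maf-S and crc, with day-10 ratios of 0.29, 0.09, -0.08 and -0.22. Of 23 glutathione transferase genes on the array 9 were tested, and GstE12 alone passed, as lower for the mean of both days at -0.36 ± 0.09 (limma adjusted p = 0.0442), which is 1 of 9 beside 4.89% of all clones. Jheh2, an epoxide hydrolase gene and the only one tested of its list, fell by 0.45 ± 0.11 over both days (limma adjusted p = 0.0414). The single tested clones of the UDP-glycosyltransferases (Ugt37B1), efflux transporters (MRP) and haem synthesis genes (Uros1) did not pass, with day-10 ratios of -0.11, 0.15 and 0.09 (limma adjusted p = 0.786, 0.700 and 0.858). None of 6 steroid hormone P450 genes with other symbols, such as phm and dib, was on the array.

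Markers of fat body, a tissue with high P450 expression, were lower on day 10 beside the P450 genes. Of 16 marker genes 12 were on the array and 6 tested in 7 clones, of which 5 passed as lower on day 10, beside 2.19% of all clones, with a median of -0.90. The median of these clones ran from -1.33 to -0.49 over the day-10 arrays and from -0.72 to -0.01 over the day-14 arrays. The oenocyte list had a median of -0.48 on day 10, over 2 clones of a single gene (0 of 2 clones passed). Glial markers had -0.37 over 5 clones of 5 genes (1 of 5 passed as lower, beside the same 2.19%). Antennal markers had -0.27 over 6 clones of 3 genes (0 of 6 passed). Photoreceptor markers had -0.11 over 5 clones of 5 genes (0 of 5 passed), while the only neuronal marker tested had 0.47 and did not pass. No midgut or tubule marker was measured often enough to be tested. The marker lists were chosen with earlier results of these data known, so these counts describe the lists and are not an independent test. The part of tissue composition in the ratios of Cyp313a1, Cyp4e2 and the other P450 clones was not tested.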

How the data were processed

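The deposited table holds 1 log2 ratio of the channels per spot and array, and the log2 scale was read from the deposited values. Per the series' design text, the authors scanned cDNA arrays and quantified the images with GenePix Pro 6.0, and normalized ratios in Acuity 4.0. By the same source, they filtered spots on intensity, background, saturation and signal to noise, so intensities behind a ratio are not known here. Here the sign was turned on replicates 3 and 4 of each day, taking the ratio as Cy5 over Cy3, and 2 neighbouring spots were averaged to a clone (27648 spots, 13824 clones). The median of each array was then subtracted.

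All clones with values on at least 3 of 4 arrays of each day and in both dyes (4563) were fitted with limma 3.58.1 in R 4.3.3, with a coefficient for each day, a dye term common to both days and Benjamini-Hochberg adjustment at 0.05. The fit was tested on simulated data. The number of arrays, not a count of reads, limits the precision, and the pools are the replicates named by the labels. Gene IDs were matched to the RefSeq table of Release 6 for symbols and gene order (7447 of 7558 clones, all 51 P450 clones), and no coordinates are given since the build is not given in the sources used here. The 48 print blocks, of 576 spots each, follow from the order of rows in the file.

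P450 clones and gene lists were chosen with earlier results of these data known. Ratios on every array are given for clones that passed in any contrast, centred or as deposited, for the 3 lowest and 3 highest means of each day, and for the second clone of such a gene. Other clones are named with means. For Cyp313a1, the tested clone with the smallest day-10 p, the most alike named clones are given. Alternatives were the values as deposited, local centring (the median of clones within 2 rows and 3 clones, at least 5 of them), no dye term, each day alone, other requirements on missing values, the replicate number as a block, leaving out each array, and the ratios read as already turned.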

Additional observations from a re-analysis of the deposited data

Results flagged for a closer look

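Of 32 groups of 4 arrays examined, 3 held an array that lay apart from the others of its day by Dixon's criterion for 4 values, a rate to set against about 1 in 20 expected by chance. Cyp4e2 had -0.99 on day-10 replicate 4, while its other day-10 values ran from -0.39 to -0.27. Clone a of Cyp4ac1 had -0.77 on day-14 replicate 2, against -0.36 to -0.30 on the others. Cyp12a5 had 0.34 on day-14 replicate 1, against 0.08 to 0.11 on the others.

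Among the 28 clones that could not be tested, 3 had every array of one day on the opposite side of 0 from every array of the other day, and the difference was not tested for any of them. The share of all clones with such a split was not determined. The count of 3 therefore cannot be read as particular to P450 clones. Cyp308a1 differed by 1.66 between the means of day 14 and day 10, on 2 arrays of each day with treated RNA always in Cy5. Clone a of Cyp4ac1 differed by -0.56, with day 10 measured on Cy5 arrays only. Cyp6a18 differed by -0.24, on 3 arrays of day 10 and 2 of day 14.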

How the results depend on the processing

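As deposited, 6 P450 clones passed on day 10 and 5 for the mean of both days, beside 14.0% and 9.86% of all clones. The P450 medians were then -0.35 on day 10 and -0.005 on day 14. With local centring 0 passed on day 10 and 1 for the mean (1.41% and 4.47% of all clones), with a day-14 median of -0.10. With each day fitted alone 7 passed on day 14, beside 11.6% of all clones. Where 2 arrays per day sufficed the day-14 median was -0.11. With all 8 values required, 2 passed on day 10 (7.34% of all clones) and 4 for the mean (12.7%), with medians of -0.27 and -0.16 over 10 P450 clones. Read as already turned, 0 passed on day 10 and 0 for the mean (0.0219% and 0.636% of all clones), the medians were 0.061 and -0.014, and the ratio of Cyp313a1 was 0.11 on day 10 and -0.04 for the mean, and that of Cyp4e2 0.12 for the mean (limma adjusted p = 0.794, 0.897 and 0.517). Leaving out each array in turn gave 0 to 1 P450 calls on day 10, beside 0.0657% to 3.13% of all clones. For the mean it gave 1 to 3, beside 0.614% to 6.05%, and on day 14 and for the difference 0 to 0, beside 0.0%. The P450 medians ran from -0.17 to -0.09 on day 10 and from -0.09 to -0.04 on day 14. Over these fits, Cyp313a1 had -1.44 to -1.23 on day 10 and -1.23 to -0.98 for the mean, and Cyp4e2 -0.63 to -0.48. Day-10 replicate 1 and day-14 replicate 4 were the arrays without which Cyp313a1 on day 10 and Cyp4e2 for the mean did not pass (limma adjusted p = 0.0543 and 0.0627). These were also the fits with the lowest shares of all clones passing, 0.0657% on day 10 and 0.614% for the mean. Without the dye term, and with both spots of a clone required, the counts were 1 on day 10, 0 on day 14, 0 for the difference and 2 for the mean, the same as reported. Of all clones, 1.25% passed on day 10 and 2.78% for the mean without the dye term, and 3.03% and 6.73% with both spots required. The cause of these changes was not tested.

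With the replicate number as a block, on clones with all 8 values, 1 P450 clone passed on day 10 (4.63% of all clones) and 2 for the mean of both days (8.93% of all clones; Cyp313a1 and Cyp4e2, limma adjusted p = 0.00114 and 0.00579), with medians of -0.27 and -0.16. Same-numbered arrays of both days correlated with r = 0.0997, 0.265, 0.157 and 0.252 in their deviations from the day means. Not every array correlated best with its own number, and the numbers share the dye orientation, so they were not taken to pair the arrays.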
